A study of Mus musculus with 80 samples.

Results

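Nuclei of hepatocytes from fed mice were compared between ZT4 and ZT12, where ZT counts hours from lights on, so that the comparison spans most of the light phase in which mice rest. The 8 libraries are 4 at ZT4 and 4 at ZT12, of 80 libraries in the series, and they were chosen by their labels alone. The mice were females of the HEP-INTACT line, fed ad libitum and killed 16 h (ZT4) or 24 h (ZT12) after the fast of a parallel group had begun at ZT12. In this line hepatocyte nuclei carry a tag by which they were captured on beads from whole liver nuclei. The promoter or Cre that restricts the tag, the strain and the age are not stated in the labels, and the number of mice behind each tagged library is not stated either. Every p-value below therefore reflects library-to-library spread. Beside them stand 8 libraries of fasted hepatocyte nuclei at the same 2 clock times (16 h and 24 h without food), 8 of macrophage nuclei from fed MAC-INTACT mice, in which macrophages carry the tag, and 1 unpurified pool of 4 fed HEP-INTACT mice per time.

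The liver clock is a loop of transcription factors. BMAL1 (gene Arntl), paired with CLOCK or its relative NPAS2, activates genes through a DNA element called the E-box, among them those of its own repressors, the PER and CRY proteins and CIART. A linked loop joins the nuclear receptors ROR, which activate Arntl and Npas2, and REV-ERB (Nr1d1, Nr1d2), which repress them, and the factors DBP, TEF and HLF pass the rhythm on through the D-box. In nocturnal rodents corticosterone rises towards lights off, and feeding is concentrated in the dark, so that both a hormone and a nutrient rhythm reach the liver together with its own clock. Nuclear RNA holds unspliced transcripts and follows transcription more closely than total RNA does.

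Promoter sequences are shown for 5 clock genes that rose from ZT4 to ZT12 and hold a match to the E-box (CACGTG) or the D-box (TTANGTAA) in the 250 bases before the start. Each is printed 5′ to 3′ on the strand of the gene, from RefSeq (build GRCm38.p6, the same assembly as mm10), with the matches in capitals. Ciart lies on chromosome 3 (chr3:95882229-95882478, minus strand), Per1 on chromosome 11 (chr11:69098699-69098948, plus strand), Per3 on chromosome 4 (chr4:151044666-151044915, minus strand), Cry1 on chromosome 10 (chr10:85185055-85185304, minus strand) and Tef on chromosome 15 (chr15:81802423-81802672, plus strand).
Ciart: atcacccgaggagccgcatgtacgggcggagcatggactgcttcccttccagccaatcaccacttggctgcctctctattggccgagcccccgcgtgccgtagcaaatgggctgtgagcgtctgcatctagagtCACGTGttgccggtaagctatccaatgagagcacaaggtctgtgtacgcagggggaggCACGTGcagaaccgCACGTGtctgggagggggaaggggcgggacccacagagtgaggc
Per1: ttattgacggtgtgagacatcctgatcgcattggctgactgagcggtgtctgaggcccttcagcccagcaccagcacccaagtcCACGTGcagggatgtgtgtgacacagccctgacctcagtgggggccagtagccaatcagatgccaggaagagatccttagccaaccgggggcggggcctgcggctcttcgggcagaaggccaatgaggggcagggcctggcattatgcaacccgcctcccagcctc
Per3: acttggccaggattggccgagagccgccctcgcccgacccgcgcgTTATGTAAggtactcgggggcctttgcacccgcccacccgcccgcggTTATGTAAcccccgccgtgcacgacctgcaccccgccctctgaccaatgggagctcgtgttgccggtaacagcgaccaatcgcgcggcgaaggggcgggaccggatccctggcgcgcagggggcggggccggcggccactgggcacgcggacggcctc
Cry1: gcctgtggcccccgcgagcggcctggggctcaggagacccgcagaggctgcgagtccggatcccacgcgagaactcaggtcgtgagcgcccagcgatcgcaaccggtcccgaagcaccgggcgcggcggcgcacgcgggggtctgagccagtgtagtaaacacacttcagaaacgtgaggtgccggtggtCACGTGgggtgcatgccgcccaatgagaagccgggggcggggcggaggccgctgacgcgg
Tef: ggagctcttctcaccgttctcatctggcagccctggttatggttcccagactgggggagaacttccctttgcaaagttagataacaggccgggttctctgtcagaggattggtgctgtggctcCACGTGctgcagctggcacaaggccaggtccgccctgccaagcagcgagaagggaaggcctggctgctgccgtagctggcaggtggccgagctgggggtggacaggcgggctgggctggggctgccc
Ciart holds 3 E-boxes, with first bases 116, 58 and 44 bases before the start, and Per3 holds 2 D-boxes, 205 and 158 bases before it. Per1, Cry1 and Tef hold 1 E-box each, 166, 60 and 127 bases before the start. Over the 9000 tested genes with a RefSeq promoter within 50 bases of the listed start, searched on both strands from 250 bases before to 50 bases after the start, 9.8% held an E-box and 1.49% a D-box. A D-box was found in 24 of 667 promoters of genes higher at ZT12 (3.6%) and in 3 of 571 promoters of genes lower at ZT12 (0.525%). The E-box shares were 12% and 8.76%. Among genes changed by over 4-fold, E-boxes were in 3 of 46 promoters of higher genes (6.52%) and 3 of 43 of lower genes (6.98%), both under the share of all promoters. The ROR/REV-ERB element (ANTAGGTCA) was found in 0.378% of all promoters, 0.9% of those of higher genes and 0.35% of those of lower genes. In the clock gene lists used below, E-boxes were in 3 of 7 promoters of repressors, 3 of 14 of outputs and 1 of 7 of activators and ROR/REV-ERB genes. D-boxes were in 1 of 7, 0 of 14 and 0 of 7. The 5 genes printed were picked for both a rise and a match. These are counts of letters in a window, with no test and no overlap between different motifs except in 1 promoter.

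From ZT4 to ZT12, 963 genes rose and 823 fell in fed hepatocyte nuclei, of 12942 tested. Called genes were thus 13.8% of those tested, 7.44% higher and 6.36% lower at ZT12 (edgeR quasi-likelihood test, adjusted p under 0.05). Fold changes below are log2 values of ZT12 over ZT4 with their SE, and levels are CPM (read counts scaled to library size), listed for replicates 1 to 4 of each time in turn. The count of genes that fell came to 535 without ZT12 replicate 1. More than 2-fold changes numbered 317 upward and 279 downward, and more than 4-fold changes 77 and 57. The 4 libraries of one time stood wholly apart from the 4 of the other in 2257 genes (17.4% of those tested), and 1371 of the called genes were among these. The median log2 fold change over all genes tested was -0.01, and the median size of a called change was 0.76. Across the 4 fed times, 808 of the 963 genes that rose had their highest mean at ZT12, and 672 had their lowest at ZT4. Of the 823 that fell, 688 had their lowest mean at ZT12 and 515 their highest at ZT4.

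The 8 libraries held 13659607 to 23792195 counted reads. Correlations of log2(CPM + 1) across genes were 0.980 to 0.994 within a time and 0.966 to 0.983 between times. Library numbers in the titles follow on without a gap, and the titles name no batch. They were parted here into 3 runs, where the series of conditions starts again. Replicates 1 and 2 of each time fell in the first run, replicate 3 in the next and replicate 4 in the last. Within each run 1553 of the 1786 called genes (87.0%) moved the same way, against 4742 of all tested genes (36.6%). The called genes were chosen on these same libraries, so this share is a description. Summed hepatocyte markers stood at 18308 to 21469 CPM at ZT4 and 19169 to 28141 at ZT12, and 3 of 23 such markers (Apoa2, Hnf4a and Tdo2) were called higher. Kupffer cell and macrophage markers summed to 254 to 359 CPM at ZT4 and 229 to 404 at ZT12. Markers of other cells of the liver were lower at ZT12: sinusoidal endothelial markers summed to 276 to 310 CPM at ZT4 and 138 to 261 at ZT12, and stellate markers to 119 to 183 and 52.9 to 91.4 CPM. Cholangiocyte markers summed to 593 to 741 and 371 to 592 CPM. Single members of these lists were called lower: Reln and Pdgfrb of 19 stellate, 1 of 8 cholangiocyte and Axl of 21 macrophage markers, where the calls of Axl and Pdgfrb were lost on leaving out most single libraries (adjusted p up to 0.129). Of 20 endothelial markers edgeR called 0, with 3 lower at unadjusted p under 0.05 and 1 called by DESeq2. Lymphocyte markers summed to 3.37 to 10.3 CPM over the 8 libraries, and 3 of 12 markers of monocytes and neutrophils, 4 of 7 of erythroid cells and 1 of 12 of cholangiocytes were at 0 in all 8. Fewer nuclei of a cell type and less RNA per nucleus cannot be told apart here, and the part of such nuclei in the falling genes was not tested.

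The activators Npas2 and Arntl fell over the light phase. Npas2, the partner of BMAL1 that can stand in for CLOCK, gave 25.0, 59.9, 57.9 and 136 CPM at ZT4 and 0.771, 1.30, 0.893 and 1.37 CPM at ZT12. The groups stood far apart, with the lowest ZT4 library above every ZT12 library, and the change was -6.01 ± 0.74 on the log2 scale (adjusted p = 1.99e-06). Arntl, which encodes BMAL1 itself, gave 137, 174, 205 and 330.1 CPM at ZT4 and 20.4, 39.8, 12.6 and 18.3 CPM at ZT12, again without overlap and with a log2 fold change of -3.22 ± 0.32 (adjusted p = 4.01e-08). Nr1d1, which encodes the repressor REV-ERBα, stood at 119.9, 96.4, 94.2 and 91.4 CPM at ZT4 and 31.4, 46.7, 68.4 and 21.9 CPM at ZT12. It fell (log2 fold change -1.25 ± 0.38, adjusted p = 0.0265), and the call was lost without ZT4 replicate 1 (adjusted p = 0.0675), ZT12 replicate 1 (0.0926) or ZT12 replicate 4 (0.0947). All 4 ZT12 libraries of Nr1d1 still exceeded its fed means at ZT15, 5.30 ± 2.35, and ZT20, 1.42 ± 0.602. Its paralog Nr1d2 gave 0.49 ± 0.19 (adjusted p = 0.0881) and did not pass.

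Cry1, a repressor of BMAL1 that was listed with this loop because its phase is late, gave 19.2, 18.7, 34.9 and 38.2 CPM at ZT4 and 66.5, 50.5, 33.0 and 72.5 CPM at ZT12. Here the groups overlapped, since ZT12 replicate 3 lay below 2 of the ZT4 libraries (log2 fold change 1.0 ± 0.24, adjusted p = 0.00476), and Cry1 did not pass in a fit to these 8 libraries alone (adjusted p = 0.0555). Its fed means went on to 126 ± 17.8 at ZT15 and 156 ± 11.2 at ZT20. Rora, encoding RORα, was at -0.40 ± 0.17 (adjusted p = 0.133) and Nfil3, a repressor that competes at D-boxes, at -0.68 ± 0.36 (adjusted p = 0.217), and neither passed. Over the 8 members tested, 2 rose and 3 fell (62.5% called, against 13.8% of all genes). The median log2 fold change was -0.54, and 1 member rose in the fit to the 8 libraries alone. Not every member is named here. The Clock gene was not analysed here.

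Among the repressors, the called genes rose. Of 12 members tested, 5 rose (41.7% called, against 13.8% of all genes), and the median log2 fold change was 0.69. Per2, which encodes a core repressor of BMAL1, gave 26.3, 18.6, 16.5 and 11.8 CPM at ZT4 and 356, 317, 245 and 279 CPM at ZT12. All 4 ZT12 libraries exceeded all 4 ZT4 libraries (log2 fold change 4.03 ± 0.25, adjusted p = 6.19e-12). Ciart, which encodes a small repressor of the BMAL1 complex and whose promoter holds the 3 E-boxes above, showed the widest change of all named genes. It gave 0.853, 0.419, 0.737 and 0.269 CPM at ZT4 and 38.2, 51.0, 53.6 and 37.1 CPM at ZT12, without overlap (log2 fold change 6.30 ± 0.61, adjusted p = 3.45e-08). Per1, a Per gene that glucocorticoids also induce, gave 7.01, 30.3, 5.77 and 3.86 CPM at ZT4 and 109, 154, 130.2 and 119 CPM at ZT12. ZT4 replicate 2 was several-fold above the other ZT4 libraries yet below every ZT12 library (log2 fold change 3.46 ± 0.69, adjusted p = 9.94e-04). Per3, with the 2 D-boxes, gave 97.9, 76.7, 22.2 and 15 CPM at ZT4 and 399.7, 505, 638 and 452 CPM at ZT12, and again no library crossed over (log2 fold change 3.24 ± 0.49, adjusted p = 4.41e-05). Cry2 rose less, by 0.86 ± 0.17 (adjusted p = 8.58e-04), from 69.6 ± 21.6 to 126 ± 18.2 CPM (mean ± SD, n = 4). Timeless gave 0.94 ± 0.32 (adjusted p = 0.0510) and was called by DESeq2, while Bhlhe40 (0.52 ± 0.40), Bhlhe41 (0.36 ± 0.53), the kinases Csnk1d (0.15 ± 0.10) and Csnk1e (-0.34 ± 0.16), and the ubiquitin ligase subunit Fbxl21 (-0.71 ± 0.33) did not pass. DESeq2 called 6 members higher. In the fit to the 8 libraries alone edgeR called Fbxl21 lower (-0.70, adjusted p = 0.0313).

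**Figure D1:**
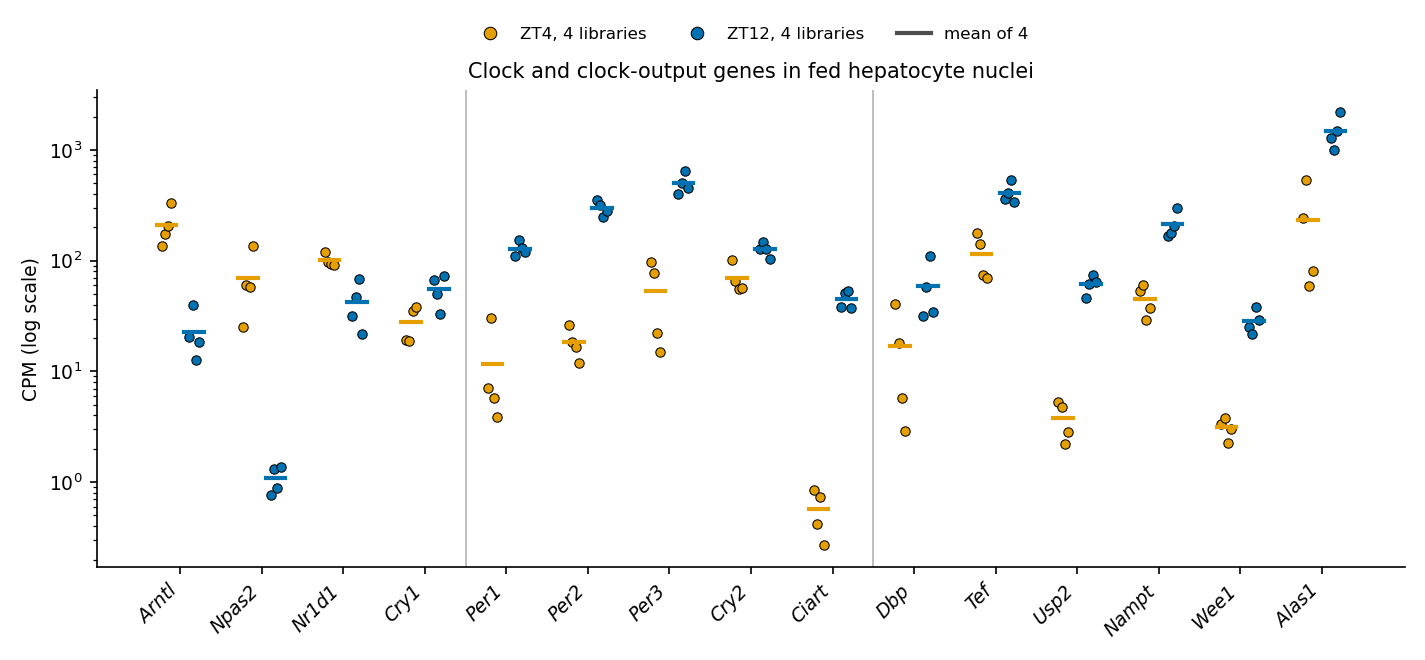
CPM (log axis) of 15 clock and clock-output genes in each of the 4 fed libraries at ZT4 and the 4 at ZT12; points are libraries, bars the mean of 4, and vertical lines part activators and ROR/REV-ERB genes, repressors, and outputs. Npas2, Arntl and Nr1d1 sit lower at ZT12, the other genes sit higher, and the points of the 2 times overlap for Cry1 and Dbp.

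Most clock outputs tested were higher, with 10 of 17 members higher and 2 lower (70.6% called, against 13.8% of all genes). Their median log2 fold change was 1.64. As for every list here, members were chosen with earlier results of these data known, so the called share is a description. Usp2, a deubiquitinase gene with strong rhythms in many tissues, gave 5.31, 4.72, 2.21 and 2.82 CPM at ZT4 and 46.4, 61.3, 74.3 and 64.6 CPM at ZT12, an upward change without overlap (log2 fold change 4.03 ± 0.29, adjusted p = 9.97e-11). Wee1, which encodes a kinase that holds cells before mitosis, gave 3.36, 3.83, 2.27 and 3.00 CPM at ZT4 and 25.1, 21.7, 38.1 and 29.1 CPM at ZT12 and was 3.19 ± 0.40 higher on the log2 scale (adjusted p = 2.50e-06). Nampt, for the rate-limiting enzyme of NAD salvage, rose by 2.25 ± 0.20 (adjusted p = 5.74e-09). Tef, for a D-box activator, rose by 1.82 ± 0.24 (adjusted p = 3.26e-06) from 116 ± 52.1 to 409 ± 85.5 CPM. The other D-box activators were less uniform: Dbp gave 40.7, 18.2, 5.71 and 2.87 CPM at ZT4 and 31.5, 58.2, 111 and 34.3 CPM at ZT12, which overlapped because ZT4 replicate 1 lay above ZT12 replicate 1 (log2 fold change 1.80 ± 0.65, adjusted p = 0.0627). Dbp passed with the run of library numbers as a term (adjusted p = 0.0461) and without ZT4 replicate 1 (0.0101), and Hlf gave 0.38 ± 0.17 (adjusted p = 0.134).

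The split among the ZT4 libraries recurred in other outputs. Replicates 1 and 2, which share a run of library numbers, stood above replicates 3 and 4 for Dbp, Tef and Per3 and for Alas1, the rate-limiting enzyme of heme synthesis, which gave 243, 539.8, 59.3 and 81.2 CPM at ZT4 and 1280.2, 992, 1485 and 2201 CPM at ZT12. All ZT12 libraries of Alas1 lay above all ZT4 libraries (log2 fold change 2.69 ± 0.54, adjusted p = 9.36e-04). Por, which feeds electrons to the cytochromes P450, rose by 1.64 ± 0.31 (adjusted p = 5.28e-04). Also higher were Nr1i3, encoding the xenobiotic receptor CAR (1.46 ± 0.27), the membrane protein gene Tspan4 (1.88 ± 0.34), Tsc22d3, encoding the glucocorticoid-induced GILZ (1.92 ± 0.36), and Lonrf3 (0.76 ± 0.19), which was not called in a fit to the 8 libraries alone. Nr1i3, Tspan4 and Dbp each overlap another tested gene on the opposite strand, as do Taf1d, Ccne2, Dnaja1 and Apoa2, and Sco2 overlaps Tymp on its own strand, so reads of such pairs may be shared. Members of the Acot, Cyp3a, Cyp4a, Gstm, Serpina3 and Ces1 families may share reads likewise. Ntrk2, for a neurotrophin receptor, fell by 2.10 ± 0.59 (adjusted p = 0.0157). Its ZT12 libraries ranged from 1.99 to 25.7 CPM and the call was lost in the fit to the 8 libraries alone and without replicate 1 or replicate 2 of either time (adjusted p = 0.0503 to 0.0694). Leo1 fell by 0.59 ± 0.16, a call lost without ZT12 replicate 4 (0.0577), without ZT4 replicate 4 (0.0571) or in the fit to the 8 libraries alone (0.0732). Gys2, liver glycogen synthase (-0.03 ± 0.33), Cyp2a5 (0.55 ± 0.45) and Cyp2b10 (0.44 ± 0.73) did not pass.

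**Figure D2:**
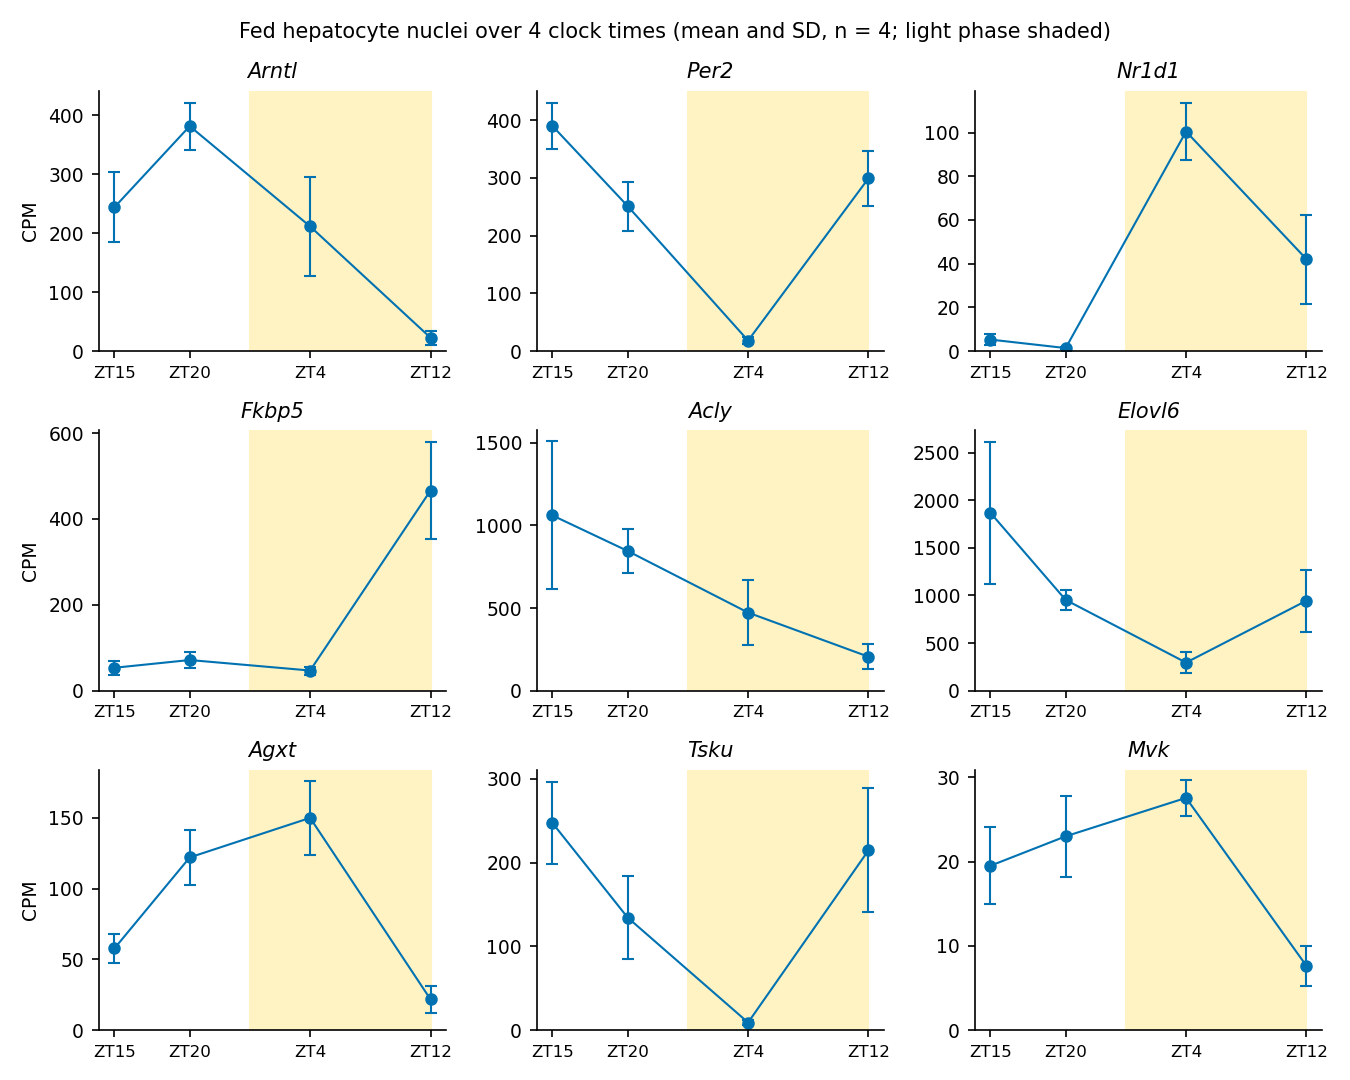
Mean CPM with SD (n = 4, linear axis from 0) of 9 genes in fed hepatocyte nuclei at ZT15, ZT20, ZT4 and ZT12, with the light phase shaded; the x axis is spaced by hours. Fkbp5 is high at ZT12 alone among the 4 times, Nr1d1 is highest at ZT4, Arntl, Agxt and Mvk are lowest at ZT12, and Per2 and Tsku are lowest at ZT4.

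Beyond the clock lists, the genes with the largest upward changes had varied functions. Rgs16, a regulator of G protein signalling, gave 7.34, 2.27, 0.552 and 3.95 CPM at ZT4 and 129, 235, 149.5 and 156 CPM at ZT12 (log2 fold change 5.53 ± 0.70, adjusted p = 2.84e-06). It was high at ZT12 alone, since its fed means were 2.78 ± 1.06 at ZT15 and 0.771 ± 0.261 at ZT20. Tsku, which encodes a secreted protein made by the liver, gave 8.58, 11.7, 10.8 and 5.51 CPM at ZT4 and 270.4, 219, 109 and 261 CPM at ZT12 (log2 fold change 4.56 ± 0.44, adjusted p = 3.98e-08), and its mean at ZT15 was as high, at 247 ± 49.3 CPM. Tnnc1, a troponin gene, rose by 4.53 ± 0.42, Osbpl5, encoding a lipid transfer protein, by 3.38 ± 0.30, and Ttll8, a tubulin-modifying enzyme gene, by 5.85 ± 0.83 from 0 to 0.142 CPM per library at ZT4 to 2.01 to 5.98 CPM at ZT12.

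Among the largest falls, Agxt, encoding the peroxisomal enzyme that clears glyoxylate, gave 171, 117, 141 and 171 CPM at ZT4 and 19.7, 35.5, 18.4 and 13.6 CPM at ZT12 (log2 fold change -2.79 ± 0.32, adjusted p = 6.93e-07). Rfx4, a transcription factor gene, gave 218, 186, 42.7 and 159 CPM at ZT4 and 8.74, 12.6, 17.1 and 7.73 CPM at ZT12, a wide gap with 1 low ZT4 library (log2 fold change -3.71 ± 0.50, adjusted p = 8.48e-06). Loxl4 (-4.55 ± 0.63), Gstm7 (-3.13 ± 0.39), Serpina7, encoding thyroxine-binding globulin (-3.04 ± 0.77), Dnah5 (-2.73 ± 0.46), Gucy2c (-2.63 ± 0.71), Mpzl1 (-2.61 ± 0.28) and Sco2, an assembly factor of cytochrome oxidase (-2.61 ± 0.28), were also among the 12 lowest of the genes whose libraries did not overlap. Gucy2c lost its call (adjusted p = 0.0537) without ZT4 replicate 3, which held 7.24 CPM against 2.15 to 2.87 in the other 3. In the unpurified pools, 24 of the 24 genes named for the size of their change, and 22 of the 22 called clock-list members, moved in the direction seen in tagged nuclei.

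The called targets of the glucocorticoid receptor were mostly higher at ZT12. Of 31 tested, 10 rose and 1 fell (35.5% called, against 13.8% of all genes), with a median log2 fold change of 0.93. Fkbp5, a chaperone that dampens the receptor and a sensitive readout of it, gave 41.4, 49.1, 38.1 and 59.1 CPM at ZT4 and 447, 396, 389 and 633 CPM at ZT12. Every ZT12 library lay above every ZT4 library (log2 fold change 3.31 ± 0.47, adjusted p = 1.71e-05). Its fed means at the dark times were 53.3 ± 16.4 (ZT15) and 71.4 ± 19.3 CPM (ZT20), both far below ZT12. Angptl4, an inhibitor of lipoprotein lipase, rose by 2.84 ± 0.36, Cebpb, a transcription factor of hormone and acute phase responses, by 2.58 ± 0.35, and Slc37a4, the glucose 6-phosphate transporter, by 1.59 ± 0.27 (adjusted p = 3.28e-06, 6.37e-06 and 1.78e-04). Zbtb16 (2.15 ± 0.48), Lpin1, a phosphatidate phosphatase and coactivator (2.67 ± 0.71), Pik3r1 (0.93 ± 0.18) and Tdo2 (0.84 ± 0.26) also rose, and Tdo2 lost its call without replicate 2 of either time, ZT4 replicate 1 or ZT12 replicate 4 (adjusted p = 0.0590 to 0.122). Sgk1, a kinase gene that the receptor induces in many cells, fell by 2.19 ± 0.65, a call lost without ZT4 replicate 3 or ZT12 replicate 1, 3 or 4 (adjusted p = 0.0531 to 0.119). Tat, a classical target in liver, gave 1936, 1592, 853 and 1038 CPM at ZT4 and 1032, 2249, 681 and 1552 CPM at ZT12 with full overlap (0.02 ± 0.51, adjusted p = 0.983), and Errfi1 gave 0.64 ± 0.45 (adjusted p = 0.368).

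**Figure D3:**
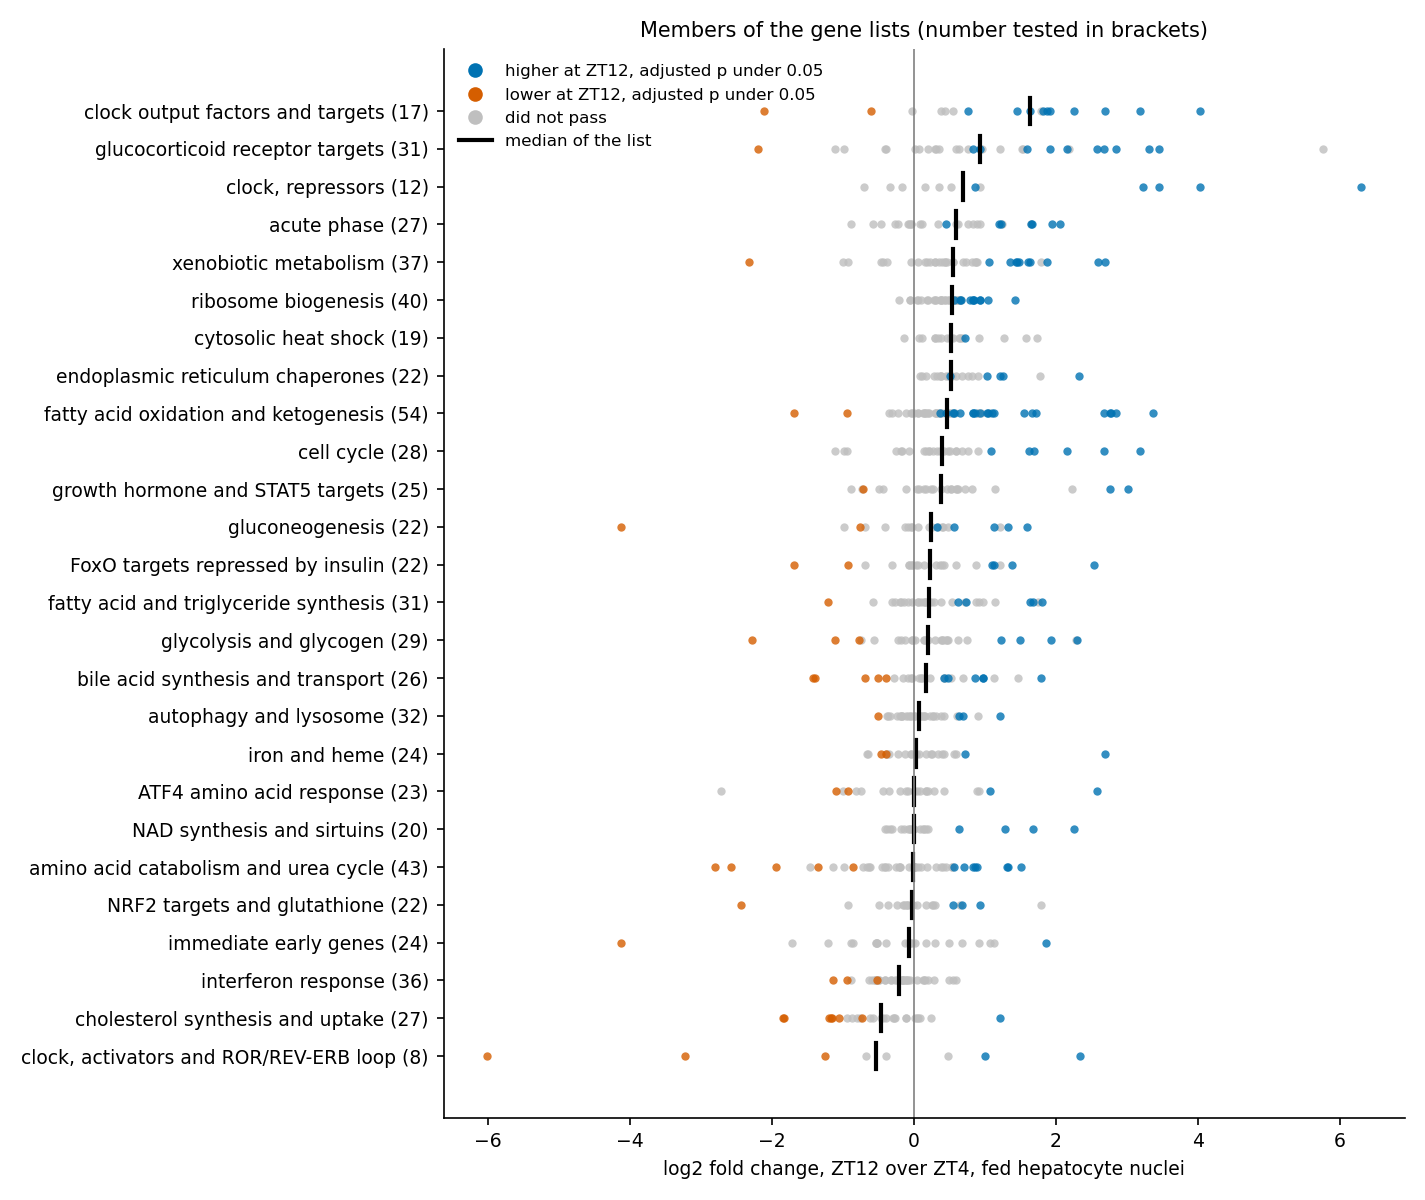
Log2 fold change from ZT4 to ZT12 of the tested members of 26 pathway lists in fed hepatocyte nuclei (x axis); points are genes, coloured where they passed, and black bars are list medians. Clock output and glucocorticoid receptor lists have the highest medians, 1.64 and 0.93, and the cholesterol and clock activator lists the lowest, -0.46 and -0.54.

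Genes of fatty acid oxidation rose more often than they fell. Of 54 tested, 21 were higher and 2 lower, a share of 42.6% against 13.8% of all genes, with a median log2 fold change of 0.47. Without the filter on low counts, or without ZT12 replicate 1 or 4 or ZT4 replicate 4, none of the 54 was called lower. Acot1, a thioesterase that frees fatty acids from coenzyme A in the cytosol, gave 1.85, 1.26, 0.430 and 1.39 CPM at ZT4 and 13.4, 14.4, 11.4 and 13.3 CPM at ZT12. The 2 groups did not overlap (log2 fold change 3.37 ± 0.39, adjusted p = 5.59e-07). Its relatives Acot3 and Acot4, of peroxisomes, rose by 2.76 ± 0.47 and 1.66 ± 0.30. The fatty acid ω-hydroxylase Cyp4a10 gave 37.5, 23.4, 5.03 and 47.8 CPM at ZT4 and 180.2, 244, 230.5 and 129 CPM at ZT12 (log2 fold change 2.78 ± 0.50, adjusted p = 3.00e-04), with ZT4 replicate 3 the lowest. Ppara, the nuclear receptor that drives this programme, gave 1293, 820.1, 858 and 1099.9 CPM at ZT4 and 1841, 2162, 2646 and 2098 CPM at ZT12, so every ZT12 library exceeded every ZT4 library (log2 fold change 1.10 ± 0.20, adjusted p = 2.84e-04). Other rises were those of Pex11a, a factor of peroxisome division (1.55 ± 0.25), Ech1 (1.03 ± 0.15) and Cpt1a, the gate for fatty acids into mitochondria (0.83 ± 0.22). Pdk4, a kinase that spares pyruvate, fell by 1.69 ± 0.52 (adjusted p = 0.0298), a call lost without the filter on low counts and without ZT4 replicate 4 or ZT12 replicate 1, 3 or 4 (adjusted p = 0.0502 to 0.147).

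In fatty acid synthesis 5 of 31 genes tested rose and 1 fell (median 0.22), a called share of 19.4%, near the 13.8% of all genes. Elovl6, which lengthens palmitate, rose from 295 ± 110.3 to 945 ± 325 CPM (log2 fold change 1.68 ± 0.34, adjusted p = 9.94e-04), and so did Acacb, the mitochondrial acetyl-CoA carboxylase (1.80 ± 0.44), Lpin2 (1.64 ± 0.30) and the desaturases Fads1 (0.62 ± 0.17) and Fads2 (0.73 ± 0.20). Acly, which supplies cytosolic acetyl-CoA, gave 509.8, 730.3, 363 and 287 CPM at ZT4 and 187, 314, 145 and 176 CPM at ZT12. It fell by 1.20 ± 0.27 (adjusted p = 0.00291) although ZT12 replicate 2 overlapped the lowest ZT4 library. Fasn, fatty acid synthase, showed no called change (-0.17 ± 0.46, adjusted p = 0.848), nor did Acaca (0.54 ± 0.23) or Mlxipl, encoding the sugar-sensing factor ChREBP (0.38 ± 0.18). Fed means of Fasn and Acly were highest at ZT15, at 1723 ± 754 and 1060.3 ± 448 CPM.

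Of the called genes of sterol synthesis, most fell. Of 27 genes tested, 7 fell and 1 rose (29.6% called against 13.8% of all genes), and the median log2 fold change was -0.46. The count of falls was 4 without ZT12 replicate 1 and 10 in the fit to the 8 libraries alone. In fed macrophage nuclei 19 of the same 27 genes were called lower and 1 higher. In fasted hepatocyte nuclei 1 was called lower and 6 higher, with a median log2 fold change of 0.39. Hmgcs1, an early enzyme of the mevalonate pathway, gave 227, 177, 89.8 and 267 CPM at ZT4 and 31.3, 56.0, 72.7 and 54.6 CPM at ZT12 (log2 fold change -1.82 ± 0.32, adjusted p = 2.52e-04). Mvk, the mevalonate kinase, gave 26.3, 28.2, 30.3 and 25.5 CPM at ZT4 and 7.58, 4.65, 10.4 and 7.88 CPM at ZT12, a step down in every library (log2 fold change -1.84 ± 0.30, adjusted p = 1.01e-04). Scap, the escort of the sterol-sensing factor SREBP, fell (-1.15 ± 0.17), as did Mvd (-1.19 ± 0.30) and Cyp51 (-1.17 ± 0.32), with Cyp51 not called without ZT12 replicate 1 (0.0621) or 2 (0.0569).

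Carbohydrate genes changed one by one. Gckr, which encodes a regulatory protein of hepatic glucose use, gave 549, 629, 544 and 606 CPM at ZT4 and 279, 331, 254 and 213 CPM at ZT12. It fell without overlap (log2 fold change -1.11 ± 0.14, adjusted p = 2.83e-06). The genes of the bifunctional regulators of glycolysis, Pfkfb1 (1.5 ± 0.21) and Pfkfb3 (2.30 ± 0.39), rose, as did Pgk1 (1.23 ± 0.18), and Ppp1r3c, a scaffold that targets phosphatase to glycogen, fell by 2.28 ± 0.54 (adjusted p = 0.00481). Of 29 glycolysis and glycogen genes, 4 rose and 3 fell (24.1% called, against 13.8% of all genes). In gluconeogenesis 5 of 22 rose and 2 fell (31.8% called, median 0.24): Gpt2, which turns alanine to pyruvate, rose by 1.33 ± 0.26, Foxo1, the insulin-restrained activator, by 1.13 ± 0.27 and Creb3l3 by 0.57 ± 0.15, the last not called without ZT12 replicate 2 (0.0601). Fbp1, fructose-1,6-bisphosphatase, fell by 0.75 ± 0.22 with overlapping groups and was not called without replicate 2 of either time, without ZT4 replicate 1 or in the fit to the 8 libraries alone (adjusted p = 0.0576 to 0.133). Nr4a1, an immediate early receptor gene, also fell (-4.12 ± 1.02). It was left out of the largest falls above because it missed a rule on level, overlap or the tagged minus pool difference. The 2 entry and exit enzymes were not called: Pck1 gave 1580.0, 1203, 378 and 565 CPM at ZT4 and 1848, 3513, 1223 and 2041 CPM at ZT12 (1.21 ± 0.51, adjusted p = 0.117), and G6pc gave -0.69 ± 0.49 (adjusted p = 0.375). Of the FoxO targets, 4 of 22 rose and 2 fell (27.3% called), with Txnip, an inhibitor of glucose uptake, up by 2.54 ± 0.42, Foxo3 up by 1.11 ± 0.17 and Irs1, the insulin receptor substrate, lower (-0.92 ± 0.24).

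**Figure D4:**
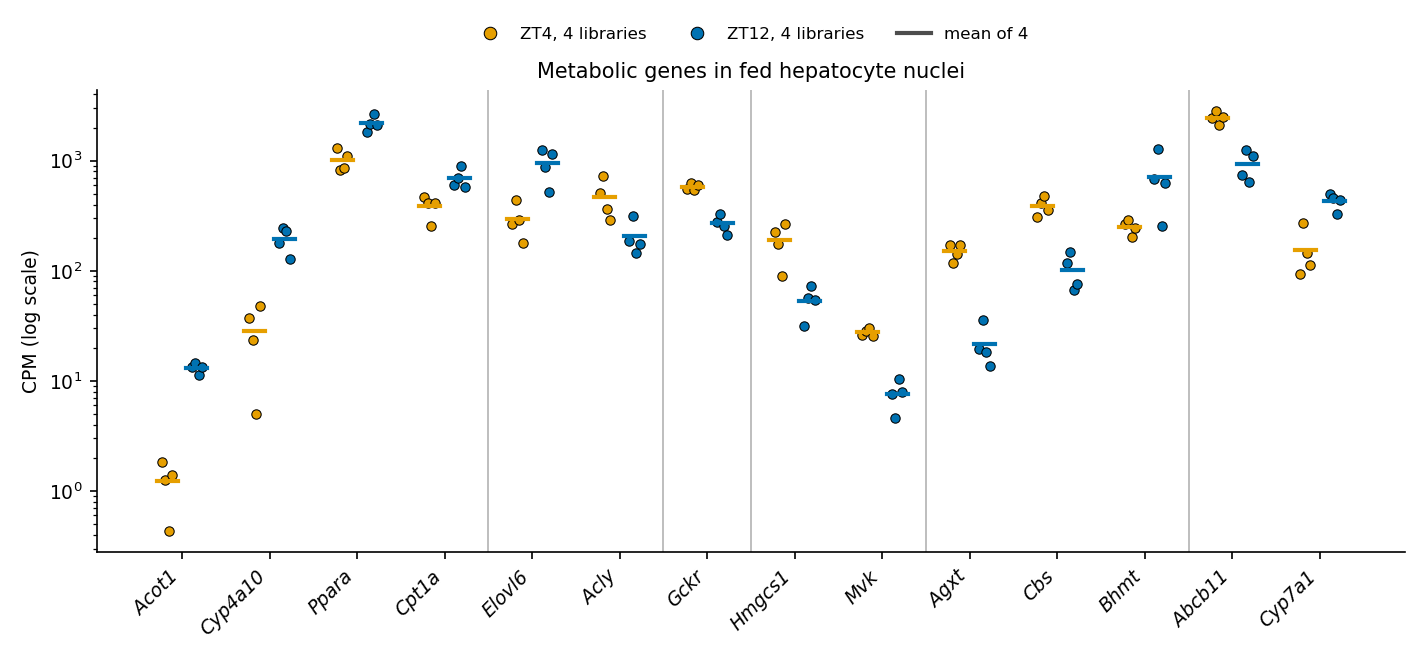
CPM (log axis) of 14 metabolic genes in each fed library at ZT4 and ZT12; points are libraries, bars the mean of 4, and vertical lines part fatty acid oxidation, fatty acid synthesis, glucose use, sterol synthesis, amino acids and bile acids. Acot1 and Elovl6 sit higher at ZT12, and Hmgcs1, Mvk and Gckr sit lower.

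Amino acid catabolism had no common direction, with 8 of 43 genes higher, 5 lower (30.2% called, against 13.8% of all genes) and a median log2 fold change of -0.01. The lower count was 9 with DESeq2 and 10 in the fit to the 8 libraries alone, and the higher count was 5 without ZT12 replicate 2. Besides Agxt, the falls included those of Oat, ornithine aminotransferase, with 537, 692, 175 and 326 CPM at ZT4 and 55.8, 86.1, 82.2 and 67.8 CPM at ZT12 (log2 fold change -2.57 ± 0.39, adjusted p = 4.21e-05), of Cbs, the first enzyme of transsulfuration, with 308, 413, 479 and 353 CPM at ZT4 and 117, 147, 66.6 and 75.7 CPM at ZT12 (log2 fold change -1.94 ± 0.27, adjusted p = 1.24e-05), and of Amdhd1 in histidine breakdown (-1.35 ± 0.21). The 4 ZT12 libraries of each lay below all ZT4 libraries. Bhmt, which remethylates homocysteine and so competes with Cbs for it, rose, with 268, 289, 201 and 246 CPM at ZT4 and 682, 1289, 253 and 626 CPM at ZT12. ZT12 replicate 3 lay among the ZT4 libraries (log2 fold change 1.5 ± 0.36, adjusted p = 0.00534), and the call was lost without ZT12 replicate 2 (log2 fold change 1.05, adjusted p = 0.0502). Cps1, the entry to the urea cycle, was not called (0.46 ± 0.38, adjusted p = 0.457).

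Bile acid genes moved in both directions, with 6 of 26 higher and 5 lower (42.3% called, against 13.8% of all genes). The higher count came to 3 without ZT12 replicate 2. The lower count came to 3 with the run term or in the fit to the 8 libraries alone, to 2 without ZT12 replicate 1 or 2, and to 3 without ZT12 replicate 4 or ZT4 replicate 1 or 2. Abcb11, the bile salt export pump, gave 2430.4, 2813, 2105 and 2470.2 CPM at ZT4 and 736, 1261, 645 and 1098 CPM at ZT12 (log2 fold change -1.39 ± 0.23, adjusted p = 1.23e-04), below ZT4 in every ZT12 library. Hsd3b7, an enzyme of ring modification, fell by 1.41 ± 0.16 (adjusted p = 3.28e-07), while Cyp27a1 and Cyp39a1, hydroxylases of the alternative routes, rose by 0.97 ± 0.17 and 1.80 ± 0.39, and Nr1h4, encoding the bile acid receptor FXR, by 0.97 ± 0.19. Cyp7a1, the rate-limiting enzyme of the classical route, gave 92.9, 271, 146 and 113 CPM at ZT4 and 499, 459.5, 330.5 and 437 CPM at ZT12. The groups did not overlap, yet it was not called (log2 fold change 1.47 ± 0.60, adjusted p = 0.107), and it passed in a fit to these 8 libraries alone (adjusted p = 0.0124).

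The called genes of drug metabolism mostly rose. Of 37 tested, 10 were higher and 1 lower (29.7% called, against 13.8% of all genes), and the median log2 fold change was 0.55. Ces1d, a carboxylesterase, gave 339, 299, 222 and 232 CPM at ZT4 and 1577, 1673, 1727 and 1630.1 CPM at ZT12 (log2 fold change 2.60 ± 0.34, adjusted p = 4.30e-06), with no overlap. Cyp3a13 rose by 1.88 ± 0.18, Gsta3, a glutathione transferase, by 1.60 ± 0.30 and Nr1i2, encoding the receptor PXR, by 1.05 ± 0.20. Cyp3a11, the main mouse CYP3A, gave 454, 445, 764 and 677 CPM at ZT4 and 1685, 2739.6, 409 and 1539.8 CPM at ZT12 (1.45 ± 0.44, adjusted p = 0.0262), overlapping through ZT12 replicate 3, and its call was lost in the fit to the 8 libraries alone and without replicate 1 or 2 of either time (adjusted p = 0.0543 to 0.135). Cyp2e1 was not called (0.30 ± 0.35, adjusted p = 0.613).

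The called genes of ribosome biogenesis and of the chaperone lists were higher at ZT12. In ribosome biogenesis 11 of 40 rose (27.5% called, against 13.8% of all genes), and edgeR and DESeq2 each called 0 lower, with 0 lower at unadjusted p under 0.05, and the median log2 fold change was 0.54. The count of 11 came to 6 without the filter and 7 in the fit to the 8 libraries alone. It came to 4 without ZT12 replicate 1 or 4 or ZT4 replicate 1, 2 or 4, to 6 without ZT12 replicate 2 and to 17 without replicate 3 of either time. Npm1, the nucleolar chaperone, gave 16.2, 16.5, 16.9 and 19.0 CPM at ZT4 and 26.6, 31.5, 28.2 and 35.6 CPM at ZT12 (log2 fold change 0.83 ± 0.15, adjusted p = 4.06e-04). Polr1a, the large subunit of RNA polymerase I, rose by 0.94 ± 0.17, Ncl, nucleolin, by 0.84 ± 0.19 and Taf1d by 0.84 ± 0.21. Of 22 chaperones of the endoplasmic reticulum 5 rose, led by Herpud1, a factor of protein degradation there, from 75.3 ± 12 to 377 ± 98.9 CPM (2.32 ± 0.39, adjusted p = 1.48e-04), with Dnajc3 (1.04 ± 0.20) and Dnajb9 (1.21 ± 0.32). Of 19 genes tested in the cytosolic heat shock list, edgeR called only Hspd1 (0.73 ± 0.18), and the median was 0.53. Hspd1 encodes a mitochondrial chaperone, so edgeR called no cytosolic member here. At unadjusted p under 0.05, however, 7 of the 19 were higher and 0 lower, and DESeq2 called 3 higher and 0 lower. Hspa8 (0.65 ± 0.41), Hsp90ab1 (0.64 ± 0.33) and Dnaja1 (0.53 ± 0.24) did not pass. In the fit to the 8 libraries alone edgeR called Dnaja1 higher (adjusted p = 0.0313). In the acute phase list 7 of 27 rose, among them Hp, haptoglobin (1.67 ± 0.29), Serpina3m (1.95 ± 0.35), Saa4 (1.20 ± 0.30) and Il6ra, the interleukin 6 receptor (1.65 ± 0.37). The G1 cyclin genes Ccne1 (2.68 ± 0.51) and Ccne2 (2.16 ± 0.28) rose at levels under 5 CPM, in a cell cycle list with 6 of 28 higher. In NAD synthesis 4 of 20 rose, with Nmrk1, a nicotinamide riboside kinase, at 1.68 ± 0.24. The ATF4 list had 2 of 23 higher and 2 lower, immediate early genes 1 of 24 higher and 1 lower, autophagy 3 of 32 and 1, growth hormone targets 2 of 25 and 1, NRF2 targets 3 of 22 and 1, iron genes 2 of 24 and 2, and interferon genes 3 of 36 lower. The shares called in these 7 lists, 8.33% to 18.2%, lie on both sides of the 13.8% of all genes. The shares were 22.7% in the endoplasmic reticulum list, 25.9% in the acute phase list, 21.4% in the cell cycle list, 20% in NAD synthesis and 5.26% in the heat shock list.

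The same 2 clock times were then read in fasted mice, whose libraries were fitted together with the fed ones. Their change also includes the step from 16 h to 24 h without food. There 2985 genes were called (23.1% of those tested), 1389 higher and 1596 lower at ZT12. Of the 1786 genes called in fed mice, 757 were called the same way in fasted mice (42.4% of the fed calls, 25.4% of the fasted ones) and 22 the opposite way. Genes higher in fed mice at ZT12 had a median log2 fold change of 0.76 there and 0.36 in fasted mice, and genes lower in fed mice -0.77 and -0.43. Because the fed values chose these genes, their fed medians are a description.

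Several clock genes moved the same way without food. Npas2 fell by 5.84 ± 0.72 in fasted mice, and Usp2 rose by 3.84 ± 0.28, Per3 by 2.48 ± 0.48 and Tef by 1.83 ± 0.24. For none of these 4 was the difference between the fasted and the fed change called (adjusted p = 0.948, 0.823, 0.541 and 0.990). Arntl fell less in fasted mice, with log2 fold changes of -1.63 ± 0.30 and, in fed mice, -3.22 ± 0.32 (difference 1.59 ± 0.42, adjusted p = 0.0344). Its mean at ZT12 was 22.8 ± 11.8 CPM in fed and 84.5 ± 18.6 in fasted mice (± SD, n = 4). Per2 missed the threshold for a difference (-1.09 ± 0.31, adjusted p = 0.05001). Over all genes the difference was called for 397 (3.07%), of which 169 were called in fed mice. The count of 397 came to 158 to 576 on leaving out single libraries, with the lowest value without fed ZT4 replicate 2.

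Among metabolic genes, Acot1 rose by 0.97 ± 0.31 in fasted mice (difference -2.40 ± 0.50, adjusted p = 0.0107), from a fasted ZT4 mean of 14.8 ± 7.10 CPM, beside 13.1 ± 1.27 CPM in fed mice at ZT12. Acot3 was not called there (-0.05 ± 0.44, difference -2.81 ± 0.63, adjusted p = 0.0162), with fasted means of 42.6 ± 21.9 and 41.0 ± 13.5 CPM. Elovl6 stood at 157 ± 56.8 and 159 ± 59.9 CPM in fasted mice (difference -1.66 ± 0.47, adjusted p = 0.0481). Of the sterol genes, Mvk stood at 3.70 ± 1.11 and 3.82 ± 2.60 CPM in fasted mice, below both fed means (difference 1.93 ± 0.44, adjusted p = 0.0162), and Mvd and Scap also differed (1.83 ± 0.51 and 0.89 ± 0.23, adjusted p = 0.0435 and 0.0348). Cbs was not called in fasted mice (0.10 ± 0.26, difference 2.04 ± 0.38, adjusted p = 0.00492), and Bhmt fell instead of rising (-1.56 ± 0.36, difference -3.07 ± 0.52, adjusted p = 0.00242). Gckr (1.24 ± 0.20), Fbp1 (1.21 ± 0.31), Acly (1.87 ± 0.38), Cyp3a13 (-1.47 ± 0.24), Tsku (-2.71 ± 0.55), Tnnc1 (-2.82 ± 0.59), Ech1 (-0.85 ± 0.21), Gstm7 (2.02 ± 0.51), Sco2 (1.43 ± 0.38) and the nucleolar genes Polr1a (-0.89 ± 0.23), Npm1 (-0.90 ± 0.22) and Taf1d (-1.13 ± 0.29) were the other named genes with a called difference, given as fasted minus fed log2 change. In the ribosome biogenesis list, edgeR called 1 gene lower in fasted mice, and the fasted median was -0.12.

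**Figure D5:**
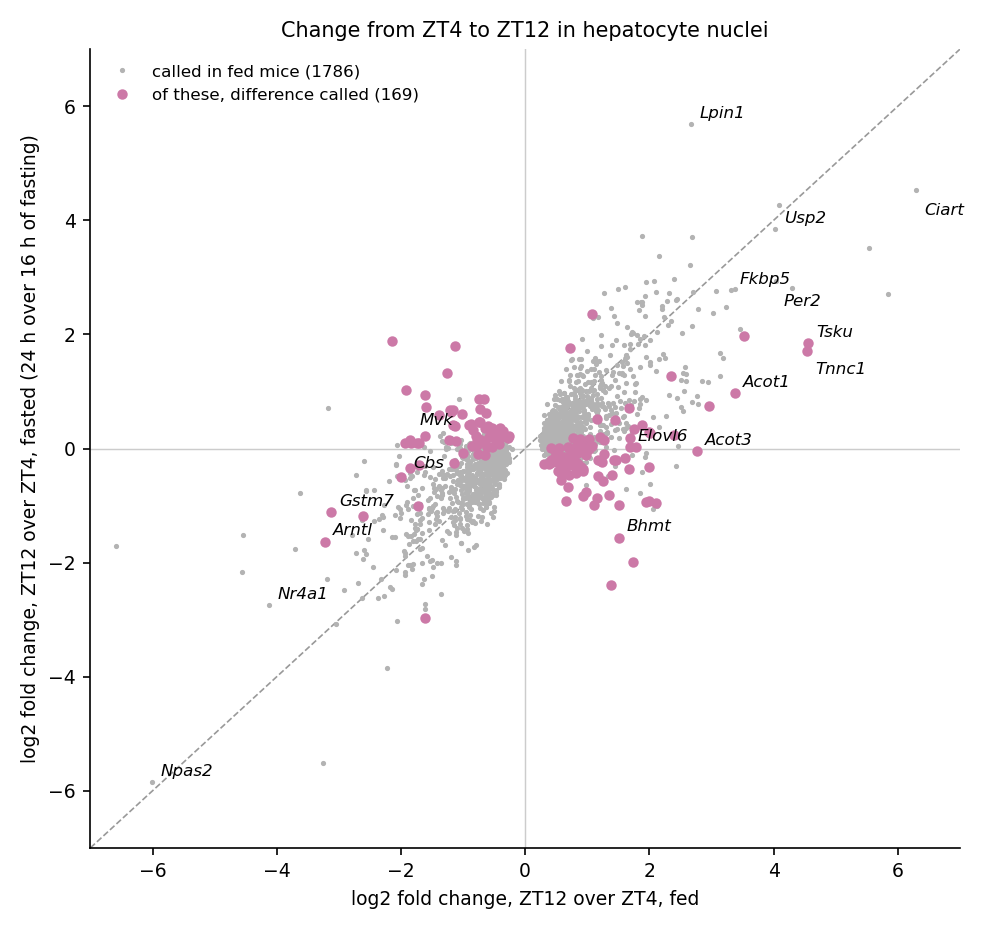
Log2 fold change from ZT4 to ZT12 in fed mice (x axis) and in fasted mice (y axis) for the 1786 genes called in fed hepatocyte nuclei; the dashed line marks equal change and coloured points the 169 whose difference was called. Npas2 and Usp2 lie near the line, Per2 below it, Acot3 and Elovl6 near a fasted change of 0, and Bhmt has opposite signs.

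Macrophage nuclei of fed mice changed at 1531 of 13864 genes over the same hours (11.0%), 866 higher and 665 lower at ZT12, and at 923 without macrophage ZT12 replicate 4. Of the hepatocyte calls, 1778 were tested there and 594 were called the same way (33.4%, and 38.8% of the macrophage calls), with 1 called the opposite way. The macrophage libraries carried much hepatocyte RNA: hepatocyte markers summed to 7788 ± 1206 CPM at ZT4 and 11367 ± 4158 at ZT12, beside macrophage markers at 10277 ± 1300.2 and 10178 ± 882 (mean ± SD, n = 4). The part of that RNA in the shared calls was not tested. Core clock genes changed in both: Npas2 fell (-5.78 ± 0.77) and so did Arntl (-3.00 ± 0.25) in macrophage nuclei, with Per2 higher by 2.58 ± 0.31, Usp2 by 3.10 ± 0.23 and Ciart by 4.20 ± 0.40.

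The difference between the cell types was called for 56 of 14011 genes (0.400%; 1582 at unadjusted p under 0.05), of which 46 were called in hepatocytes. The count came to 25 to 80 on leaving out single libraries, with the lowest value without hepatocyte ZT4 replicate 4. Nampt rose more in hepatocyte nuclei (2.25 ± 0.20 against 0.74 ± 0.13, adjusted p = 1.03e-04), and in macrophage nuclei it stood at 149 ± 14.5 and 248 ± 21.7 CPM. Txnip rose in hepatocyte nuclei by 2.54 ± 0.42, with a change of 0.00 ± 0.27 in macrophage nuclei (adjusted p = 0.00591), where it stood at 62.6 ± 7.48 and 62.7 ± 17.3 CPM. The changes of Pfkfb3 (2.30 ± 0.39 against 0.36 ± 0.13, adjusted p = 0.00732) and Acot1 (3.37 ± 0.39 against 0.66 ± 0.40, adjusted p = 0.00732) also differed in the same direction. Tsku (adjusted p = 0.0444) and Per2 (adjusted p = 0.0479) also differed, with macrophage changes of 2.10 ± 0.47 and 2.58 ± 0.31.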

How the data were processed

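The authors deposited 1 table of raw read counts per gene, with reads aligned to mm10 by STAR 2.4.2a, per the submitters' processing notes, which also name DESeq2 1.24.0. The tool that counted reads, and its strand setting, were not stated in these sources. Libraries came from a stranded kit without poly-A selection, sequenced as 50-base pairs, per the labels' protocols. The table gives the start and end of whole genes. No source states whether intronic reads were counted. No per-sample column of the table was left unmapped.

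The 32 hepatocyte-tagged libraries (8 groups of 4) were fitted together in edgeR 4.0.16 (R 4.3.3, limma 3.58.1) with TMM scaling, filterByExpr (minimum count 10, minimum total count 15), robust quasi-likelihood dispersion and Benjamini-Hochberg adjustment over all genes tested, called at 0.05. Folds are given as log2 values ± SE. CPM values of single genes use TMM-scaled library sizes. Marker sums in hepatocyte-tagged libraries use raw totals over all genes. Those in macrophage-tagged libraries use TMM-scaled sizes after the filter, so these sums are not on the same scale. Macrophage libraries were fitted likewise, and differences between cell types in a fit of 64 libraries. The procedure was also run on counts simulated from the spread it had itself estimated. Such counts cannot show that the calls hold in these libraries.

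Members and gene lists were chosen with earlier results of these data known. Genes named were the 12 highest and 12 lowest called changes that averaged 1 CPM or more over the 8 libraries, with non-overlapping times, a described symbol and a tagged minus pool log2 difference above -0.5, members of the clock lists, up to 5 called members per list with the smallest p, and uncalled members of high CPM. Acot4, Cyp4a10, Ppara, Cpt1a, Lpin1, Zbtb16, Sgk1, Pik3r1, Tdo2, Bhmt, Cyp51, Fbp1, Ppp1r3c, Fads2, Cyp3a11 and the marker genes were named after their values were seen. Alternatives were RLE scaling, no filter, a term for the run of library numbers, DESeq2 1.42.0, a fit to the compared groups only and leaving out each library. Some genes that this rule selects are not reported here.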

Additional observations from a re-analysis of the deposited data

Results flagged for a closer look

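Among 278 groups of 4 libraries of the named genes, 11 held a library far from the other 3, where chance gives about 1 in 20 groups. At ZT4, Per1 stood at 30.3 CPM in replicate 2 (others 3.86 to 7.01), Gucy2c at 7.24 in replicate 3 (2.15 to 2.87), Tsc22d3 at 143 in replicate 3 (99.2 to 104) and Cyp39a1 at 21.1 in replicate 3 (50.2 to 56.0). Also at ZT4, Pdk4 stood at 23.8 CPM in replicate 4 (9.03 to 10.99), Herpud1 at 93.3 in replicate 1 (68.0 to 70.0) and Apoa2 at 112 in replicate 4 (56.9 to 63.2). At ZT12, Sgk1 stood at 9.87 CPM in replicate 2 (4.53 to 5.001), Pdk4 at 8.16 in replicate 2 (2.90 to 3.41), Irs1 at 208 in replicate 1 (153 to 159) and Cps1 at 5106 in replicate 3 (7981 to 8422).

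The change from ZT4 to ZT12 differed between fasted and fed mice in 21 of the named genes, given as fasted minus fed on the log2 scale. Rises were smaller or reversed without food for Bhmt (-3.07), Tnnc1 (-2.82), Acot3 (-2.81), Tsku (-2.71), Acot1 (-2.40), Elovl6 (-1.66), Cyp3a13 (-1.47), Taf1d (-1.13), Npm1 (-0.90), Polr1a (-0.89) and Ech1 (-0.85). Falls were smaller or reversed for Cbs (2.04), Gstm7 (2.02), Mvk (1.93), Acly (1.87), Mvd (1.83), Arntl (1.59), Sco2 (1.43), Gckr (1.24), Fbp1 (1.21) and Scap (0.89). Adjusted p-values of edgeR's quasi-likelihood test lay between 0.00166 (Gckr) and 0.0481 (Elovl6). Most named genes were picked by their fed change, which favours differences in this direction, so the shared direction is a description. Among all genes called in fed mice with a called difference, the change was smaller or reversed in fasted mice for 101 of 103 rises and 65 of 66 falls.

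Between hepatocyte and macrophage nuclei 6 named genes differed, as hepatocyte minus macrophage change: Acot1 (2.76), Txnip (2.58), Tsku (2.52), Pfkfb3 (1.99), Nampt (1.57) and Per2 (1.5). Hepatocyte markers in the macrophage libraries stood at the levels given above, and the part of that RNA in these values was not tested.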

How the results depend on the processing

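The number of genes called between ZT4 and ZT12 was 1786, against 1809 with RLE scaling, 1553 without the filter, 1769 with a term for the run of library numbers, 2094 with DESeq2 and 1396 in the fit to the 8 libraries alone. Of the 1786, these called 1780, 1539, 1702, 1774 and 1198. Leaving out single libraries gave 1285 to 2076, with 711 to 1124 higher and 535 to 952 lower. The difference between fasted and fed changes, 397 genes, came to 782 with DESeq2, 215 in the fit to the compared groups and 158 to 576 on leaving out single libraries. It fell more than 1.5-fold without fed ZT12 replicate 1, fed ZT4 replicate 2 or fasted ZT12 replicates 1, 2 or 4. The difference between cell types, 56 genes, came to 31 without the filter, 148 with DESeq2, 36 in the fit to the compared groups and 25 to 80 on leaving out single libraries, 11 of which lowered it more than 1.5-fold: hepatocyte ZT12 replicates 1 and 2 and ZT4 replicates 2, 3 and 4, and macrophage ZT12 replicates 1, 2 and 4 and ZT4 replicates 2, 3 and 4. Macrophage calls, 1531, came to 923 to 1354 on leaving out single libraries. They came to 1465 with RLE scaling, 1268 without the filter, 1543 with the run term, 1900 with DESeq2 and 1504 in the fit to the compared groups. The cause was not tested.

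Of 111 called genes among the 139 named, 95 were called in every alternative. Log2 changes that turned sign were uncalled ones: Gys2 (0.00468 with the run term, -0.40 to 0.58 on leaving out a library), Tat (-0.32 to 0.26), Fasn (-0.46 to 0.22), Cyp2b10 (-0.26 to 0.94) and Bhlhe41 (-0.35 to 1.26). With 4 libraries per time, precision is limited for genes that vary among them, such as Dbp and Cyp7a1.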
